A study of Mus musculus with 15 samples.

Results

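The Csf2, Il3 and P4ha2 locus was taken as every accessible region that overlaps mm9 chromosome 11 from 53850000 to 54150000, a window of 300 kb. It held 14 of the 43020 regions in the deposited table, and all 14 passed the filter on low counts. The locus was chosen by measured values: earlier results of the same data had shown its region peak_12379 as the most reduced in metastasis against primary lines of rounds 2 and 3, with its neighbour peak_12378 among the most reduced in round 2. The difference between metastasis and primary lines in those rounds is therefore given as a description, and no p-value is printed for it.

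Csf2 encodes GM-CSF, a cytokine that drives granulocyte and macrophage production and activation, and Il3 encodes interleukin 3, a related cytokine acting on haematopoietic progenitors, mast cells and basophils. P4ha2 encodes a catalytic subunit of prolyl 4-hydroxylase, the enzyme that hydroxylates prolines in collagen chains so that the triple helix is stable. Csf2 and Il3 are mainly known as products of activated lymphocytes and other blood cells, but epithelial and tumour cells can also make GM-CSF, which recruits and shapes myeloid cells. Accessible stretches of DNA mark promoters, enhancers and insulators, and accessibility is not a measure of transcription.

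ATAC-seq, in which a transposase cuts and tags open chromatin, had been applied to 15 organoid lines of mouse colon cancer with the genotype labelled AKP, grown from tumours of C57Bl6 recipient mice. Organoids had been placed in the colons of immunocompetent mice, lines had been made again from the tumours, and the cycle ran for 3 rounds. The liver metastases of rounds 1, 2 and 3 gave the groups Met1, Met2 and Met3. The primary tumours of rounds 2 and 3 gave Primary2 and Primary3. Each group has 3 lines, and no primary group of round 1 was analysed here. The labels name no animal or parent line for a replicate, and the p-values therefore cover only the spread among these lines, which may be technical. The values come from cultured organoids, not from tumours in place.

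Libraries held between 285633 and 5916109 counts in regions. The shallowest, Primary3 replicate 2, had between 0 and 16 counts at 13 of the 14 regions of the locus and 75 at peak_12359, so its single values are imprecise. Signal is given as CPM, the counts scaled to a library size of 1000000 with TMM factors. Intervals on single values are exact 95% Poisson intervals and cover counting error only.

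In the order of genes on chromosome 11 of RefSeq's GRCm38.p6 annotation, the protein-coding genes run Slc22a4, Pdlim4, P4ha2, Csf2, Il3, Acsl6. The counts are in mm9, and gene positions of that build were not used here, so no region is assigned to a single gene or promoter. The stretches of 250 bases before the annotated starts of the genes that name the locus are shown for their sequence alone, 5′ to 3′ on the gene's strand, from RefSeq (GRCm38.p6). They are P4ha2 at chr11:54100674-54100923 (plus strand), Csf2 at chr11:54249900-54250149 (minus strand) and Il3 at chr11:54267280-54267529 (minus strand). These positions cannot be set against the mm9 regions. Capitals mark the core motif of GATA factors, GATAA on either strand, shown because the series' title names GATA6.
P4ha2: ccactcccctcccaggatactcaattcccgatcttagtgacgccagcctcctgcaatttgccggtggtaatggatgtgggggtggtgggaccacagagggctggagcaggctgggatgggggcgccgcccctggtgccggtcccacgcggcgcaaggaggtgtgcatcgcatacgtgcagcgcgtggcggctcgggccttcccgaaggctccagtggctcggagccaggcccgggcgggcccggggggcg
Csf2: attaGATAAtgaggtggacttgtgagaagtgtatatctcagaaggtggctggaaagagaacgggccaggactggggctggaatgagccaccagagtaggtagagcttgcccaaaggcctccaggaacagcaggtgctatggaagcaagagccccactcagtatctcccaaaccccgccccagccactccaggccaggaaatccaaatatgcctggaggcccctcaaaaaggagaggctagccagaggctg
Il3: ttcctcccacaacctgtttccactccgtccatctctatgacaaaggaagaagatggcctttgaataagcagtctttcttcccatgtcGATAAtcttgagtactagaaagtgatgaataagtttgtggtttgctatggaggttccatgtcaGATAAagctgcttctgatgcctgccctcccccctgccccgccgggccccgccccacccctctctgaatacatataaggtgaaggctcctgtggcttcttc

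The motif occurs 1 time before Csf2, 2 times before Il3 and 0 times before P4ha2, and 22.6% of all 32851 windows of this length hold it. Also searched on both strands were the AP-1 motif (TGANTCA), the TCF motif (CTTTGAT) and a long form of the NFAT core (GGAAAA). Their letters were in none of the 3 windows, against 6.75%, 3.21% and 20.4% of all windows. The shorter string GGAAA is present, on either strand, in the Csf2 and Il3 windows printed above. Its share over all windows was not counted. A match is a string of letters and not a site shown to be bound.

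Along the window the 14 regions fell into separate stretches. Near its start lay peak_12359 (53873781 to 53877387), the widest region at 3606 bp and the strongest, followed by 4 weaker regions up to peak_12365. A lone weak region, peak_12372, came next, and then a gap of 56.1 kb. Beyond it 6 regions, peak_12377 to peak_12382, were packed into 23.9 kb (54014726 to 54038586) with gaps of 0.9 to 6.2 kb. After these, peak_12384 (54061481 to 54063555) and peak_12391 (54139681 to 54140632) stood alone.

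Per length, the strongest member in primary lines was peak_12382 of the packed stretch, at a mean of 108.9 CPM per kb over the 6 lines. It was followed by peak_12380 at 75.2 and peak_12359 at 75.0 CPM per kb. In Met3 the highest mean per length was at peak_12359, at 41.2 CPM per kb, and peak_12382 stood at 29.1. In Met2 the means were 45.7 (peak_12359) and 42.4 CPM per kb (peak_12382), with the latter pulled down by replicate 1 alone, so no order is given there.

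**Figure D1:**
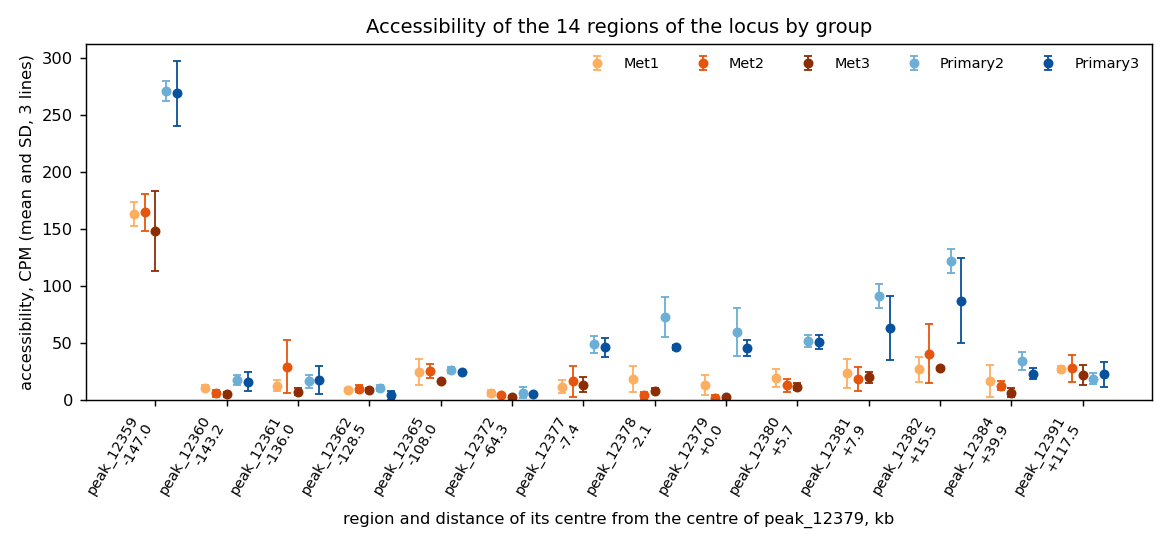
Accessibility in CPM (vertical axis, mean and SD of 3 lines) of the 14 regions in chromosomal order, with the distance of each region's centre from that of peak_12379 in kb. Primary means stand above metastasis means at peak_12359, at peak_12360 and from peak_12377 to peak_12384, and the groups mix at peak_12361 to peak_12372 and at peak_12391.

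The values that chose the locus were those of peak_12379 (54021960 to 54023278) and peak_12378 (54020046 to 54020915). At peak_12379 the Met2 lines held 3.98, 3.14 and 0 CPM and the Met3 lines 3.64, 3.43 and 1.29 (replicates 1, 2 and 3). Primary lines held 84.0, 50.3 and 45.2 CPM (Primary2) and 49.0, 51.0 and 37.5 CPM (Primary3). No later metastasis line came near a primary line, and the 0 in Met2 replicate 3 has an interval of 0 to 2.58 CPM. The log2 fold change in rounds 2 and 3 together was -4.25 ± 0.42 (SE).

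At peak_12378 the Met2 lines held 0.664, 5.83 and 6.29 CPM and the Met3 lines 6.68, 10.7 and 7.12. The Primary2 lines held 66.0, 59.6 and 92.8 CPM and the Primary3 lines 45.8, 44.6 and 48.8. The groups did not overlap here either, and the log2 fold change was -3.26 ± 0.33 (SE). The lowest value, in Met2 replicate 1, rests on 1 count (interval 0.0168 to 3.70 CPM).

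Of the 14 members, 9 were called lower and 0 higher in metastasis lines in rounds 2 and 3 together (edgeR, adjusted p under 0.05), where 8.98% of all tested regions were called lower and 11.2% higher. This count restates the contrast that chose the locus, and nothing is read from it. The median log2 fold change of the members was -1.59, with a range from -4.25 to 0.36, and that of all tested regions was 0.04. Besides the pair above, the called members were peak_12380 (-2.05 ± 0.26 SE), peak_12381 (-2.005 ± 0.29), peak_12377 (-1.68 ± 0.37) and peak_12382 (-1.65 ± 0.28) in the packed stretch. Outside it they were peak_12360 (-1.66 ± 0.36), peak_12384 (-1.53 ± 0.36) and peak_12359 (-0.80 ± 0.13).

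In these 9 members every metastasis line also lay below every primary line of its round, a pattern held by 4.96% of tested regions. In 6 of them (peak_12359 and peak_12377 to peak_12381) all 9 metastasis lines lay below all 6 primary lines, as in 1.61% of tested regions. By round, 6 members were called lower and 0 higher in round 2 (2.77% and 3.44% of tested regions), and 9 lower and 0 higher in round 3 (4.52% and 5.64%). These counts too rest on values used in the choice. Without Primary3 replicate 1 or without Primary3 replicate 3 the count for round 3 was 5. Calls over all tested regions fell from 4059 to 1483 and 1950 in these fits.

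The 5 members that were not called in rounds 2 and 3 together were peak_12361, peak_12362, peak_12365, peak_12372 and peak_12391. Their log2 fold changes ran from -0.83 ± 0.48 (peak_12372) to 0.36 ± 0.29 (peak_12391, SE). All were weak, with means over the 15 libraries between 5.04 and 23.8 CPM. The called peak_12360 and peak_12384 were as weak, at means of 11.3 and 18.8 CPM. At peak_12361 Met2 replicate 1 stood alone at 56.4 CPM, where the other 14 libraries held between 4.58 and 31.9 CPM. The same line held the lowest values of all 15 at peak_12360, peak_12377, peak_12378, peak_12380 and peak_12382.

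The Met1 lines did not enter the choice of the locus, so they were used to ask whether the lower signal was already present in metastases of round 1. Signal was lower in Met1 than in the primary groups at 7 of the 14 members and higher at 0, where 4.94% of all tested regions were lower and 4.53% higher (edgeR quasi-likelihood test over 39952 regions). Of the 7, the 5 other than peak_12378 and peak_12379 had edgeR adjusted p from 0.00159 to 0.00897. The 7 were peak_12359 and the 6 regions of the packed stretch. At each of them every Met1 line lay below every primary line, as at 6.45% of tested regions. The primary lines had entered the choice, and the 7 include peak_12378 and peak_12379, the pair that chose the locus. The count of 7 is therefore in part set by that choice. Since primary lines of round 1 are not part of the comparison, round and origin cannot be told apart in it.

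At peak_12382 (54037623 to 54038586) the Met1 lines held 30.6, 14.6 and 36.1 CPM, against 116, 116 and 135 in Primary2 and 111, 44.6 and 107 in Primary3. Met1 replicate 2 was the lowest, and the low primary value came from the shallow Primary3 replicate 2 (14 counts, interval 24.4 to 74.8 CPM). Met1 differed from the primary groups by -1.99 ± 0.37 on the log2 scale (SE, edgeR adjusted p = 0.00159, lower in 3 of 3 lines). Later metastasis lines held 12.0, 49.8 and 60.8 CPM (Met2) and 26.7, 29.0 and 28.5 CPM (Met3), so that Met2 was spread more widely here than Met1 or Met3. Met2 replicates 2 and 3 were above Primary3 replicate 2.

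At peak_12381 (54029561 to 54031459) the Met1 lines held 31.7, 8.88 and 29.8 CPM, against 89.2, 102.9 and 82.3 in Primary2 and 72.7, 31.9 and 85.3 in Primary3. The groups came closest at the shallow Primary3 replicate 2, just above the highest Met1 line. Relative to the primary groups Met1 differed by -1.80 ± 0.37 on the log2 scale (SE, edgeR adjusted p = 0.00356). Met2 (10.6, 30.5 and 14.7 CPM) and Met3 (14.6, 21.7 and 24.0 CPM) lay in the range of Met1.

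At peak_12380 (54027983 to 54028670) the Met1 lines held 18.1, 12.1 and 28.3 CPM and the 6 primary lines between 44.6 and 56.3 (median 53.7). The primary lines were close together, and the gap to the highest Met1 line was wider than their range. Met1 differed by -1.40 ± 0.32 on the log2 scale (SE, edgeR adjusted p = 0.00708). Met2 (6.64, 17.5 and 14.7 CPM) and Met3 (10.9, 15.3 and 9.06 CPM) lay below the highest 2 Met1 lines.

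At peak_12377 (54014726 to 54015760), the first of the stretch, the Met1 lines held 18.1, 6.66 and 11.3 CPM and the primary lines between 38.2 and 54.9 (median 49.4). Met1 differed by -2.11 ± 0.50 on the log2 scale (SE, edgeR adjusted p = 0.00897). Met2 lines held 1.33, 20.2 and 28.0 CPM and Met3 lines 20.05, 13.4 and 7.12. The metastasis groups overlapped each other, and each line was below each primary line.

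For the pair that chose the locus, the primary values had been part of the choice, so the Met1 difference is given without a p. At peak_12379 the Met1 lines held 12.5, 4.76 and 22.97 CPM (log2 fold change against the primary groups -1.93 ± 0.45 SE). At peak_12378 they held 13.6, 10.8 and 31.6 CPM (-1.59 ± 0.37). In both, Met1 replicate 3 was the highest metastasis line of all 9 and still below each primary line.

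At peak_12359, on the other side of the window, the Met1 lines held 159, 156 and 176 CPM, Met2 148, 166 and 180 and Met3 186, 116 and 142. The Primary2 lines held 262, 279 and 273 CPM and the Primary3 lines 295, 239 and 273. The metastasis groups were alike in range and all 9 lines lay below all 6 primary lines, but the difference was small. The log2 fold change of Met1 was -0.73 ± 0.16 (SE, edgeR adjusted p = 0.00604), which is 1.66-fold.

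The count of 7 calls in Met1 fell with 1 line left out. In a fit without Met1 replicate 2, calls over all tested regions fell from 3784 to 1162. That line was the lowest Met1 line at all 7 members, and without it only peak_12381 and peak_12382 were called. The other 5, the pair included, then had log2 fold changes between -1.77 and -0.68, and edgeR adjusted p was between 0.0625 and 0.0978 for peak_12359, peak_12377 and peak_12380. The members not called in Met1 included peak_12360 (-0.71 ± 0.43 SE) and peak_12384 (-0.88 ± 0.44). At peak_12384 Met1 replicate 1 held 32.8 CPM, inside the primary range of 20.1 to 39.5, and the other Met1 lines 8.25 and 8.95.

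**Figure D2:**
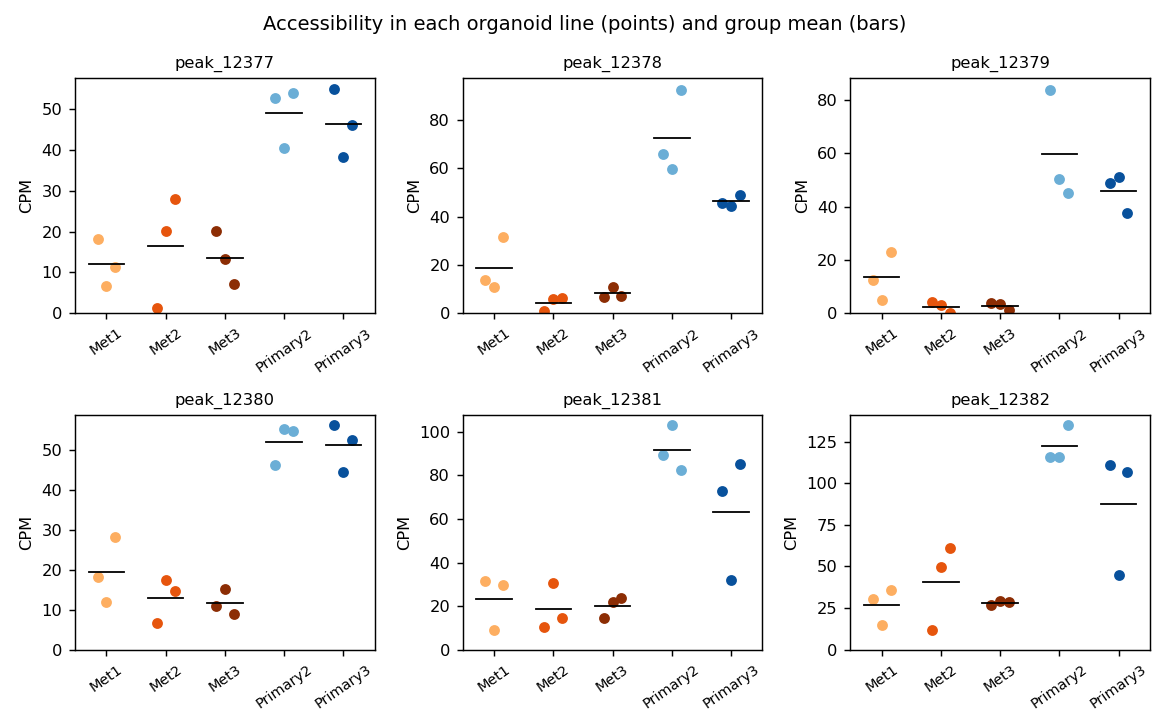
Accessibility in CPM of each organoid line (points, replicates 1 to 3 from left to right) at the 6 regions packed into 23.9 kb, with group means as bars. Metastasis lines lie below primary lines in every panel apart from the low Primary3 line (replicate 2) at peak_12382, and Met1 stands above Met2 and Met3 at peak_12378 and peak_12379.

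Metastasis lines of different rounds are set side by side as a description, since the Met2 and Met3 lines had entered the choice of peak_12379 and peak_12378 and low values there were selected. At peak_12379 the log2 fold change was -2.43 ± 0.63 (SE) for Met2 against Met1 and -2.21 ± 0.60 for Met3 against Met1. At peak_12378 it was -2.13 ± 0.49 and -1.20 ± 0.45. At both regions every Met2 and every Met3 line lay below every Met1 line, as also at peak_12360 outside the packed stretch. This pattern held for 8.65% (Met2) and 13.8% (Met3) of tested regions.

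By edgeR's calls, peak_12378 and peak_12379 were lower and no member higher in Met2 against Met1 (2 of 14, with 0.909% of tested regions lower and 2.64% higher). In Met3 against Met1 the count was 1 of 14, peak_12379, with 3.56% of tested regions lower and 5.98% higher. Nothing is read from these counts, because the choice favours low values in Met2 and Met3 at exactly these regions. Both comparisons share the Met1 lines, and without Met1 replicate 3 no member was called in either, with peak_12379 at -1.57 (Met2) and -1.36 (Met3). Over all tested regions that fit called 475 (Met2) and 1940 (Met3), against 1417 and 3813 in the main fit. Without Met2 replicate 2 or 3 only peak_12378 was called between Met2 and Met1, with 1141 and 727 calls over all tested regions. Without any single Met3 line none was called between Met3 and Met1, and without Met2 replicate 1 peak_12378 and peak_12379 were. Calls over all tested regions were 1852, 2254 and 2516 without Met3 replicates 1, 2 and 3, and 5247 without Met2 replicate 1. A fit of Met1 and Met2 alone called no member, with peak_12378 at -2.12 and peak_12379 left out by the filter on low counts. That fit called 58 regions in the whole table, against 1417 in the main fit.

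At the other 4 regions of the stretch none was called between the metastasis groups. Between Met2 and Met1 their log2 fold changes were 0.57 ± 0.56 (peak_12377), -0.58 ± 0.38 (peak_12380), -0.24 ± 0.43 (peak_12381) and 0.62 ± 0.41 (peak_12382, SE). Between Met3 and Met1 they ran from -0.72 ± 0.38 (peak_12380) to 0.28 ± 0.56 (peak_12377). Whether any of them differed from peak_12378 or peak_12379 was not tested.

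**Figure D3:**
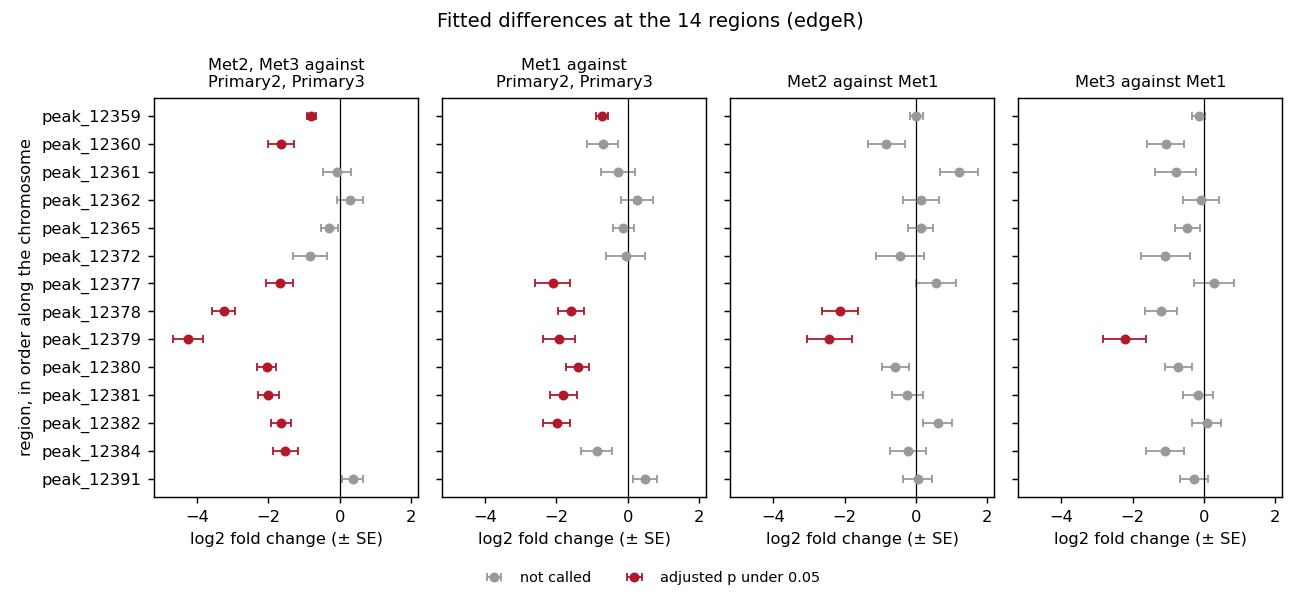
Log2 fold change with SE of each of the 14 regions in 4 comparisons (edgeR), in chromosomal order, with called regions in red. Red points run from peak_12377 to peak_12382 in both comparisons with primary lines. Also red are peak_12359 in both of these, and peak_12360 and peak_12384 in that of Met2 and Met3. In the comparisons of later metastases with Met1, red points are left at peak_12378 and peak_12379 (Met2) and peak_12379 (Met3).

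Groups of the same origin in rounds 2 and 3 did not differ detectably at the locus. Between Met3 and Met2, 0 members were called by edgeR (1 at an unadjusted p under 0.05) and 0 by DESeq2, as were 0 of all tested regions by edgeR (0%). Between Primary3 and Primary2, 0 were called by edgeR (0 at an unadjusted p under 0.05) and 0 by DESeq2, again 0% of tested regions. The change from round 2 to round 3 in the difference between metastasis and primary lines was called at 0 members by edgeR and 0 by DESeq2. By edgeR 2 members had an unadjusted p under 0.05, and 0% of tested regions were called. Over all tested regions DESeq2 called 44 between Met3 and Met2, 54 between Primary3 and Primary2 and 15 for the change between rounds. The median log2 fold change of the members was -0.26 between Met3 and Met2 and -0.29 between Primary3 and Primary2, with medians of -0.01 and -0.05 over all tested regions.

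Summed over the 14 regions, the locus held 430, 298 and 429 CPM in the Met1 lines, 314, 399.9 and 417 (Met2), and 336, 287 and 286 (Met3). The Primary2 lines held 832, 846 and 874 CPM and the Primary3 lines 794, 631 and 748. The metastasis and primary lines did not overlap, and the lowest primary line was the shallow Primary3 replicate 2. All groups other than Met1 had entered the choice of the locus, so nothing is read from this separation. How many other windows of the genome separate in this way was not counted. Group means were 385 ± 76.2 (Met1), 377 ± 55.0 (Met2), 303 ± 28.8 (Met3), 851 ± 21.1 (Primary2) and 724 ± 84.1 CPM (Primary3, SD, n = 3 each). The packed stretch alone held between 35.2 and 160.2 CPM in the 9 metastasis lines and between 254.9 and 463.8 in the 6 primary lines.

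In the adjoining windows of 300 kb the metastasis and primary lines differed less. The locus was chosen for its difference and these windows were not, so nothing is read from that contrast. The window before (53550000 to 53850000) had 19 regions with a summed signal of 706 ± 87.5 CPM in metastasis lines (SD, n = 9) and 890 ± 31.2 in primary lines (n = 6), and 1 metastasis line reached into the primary range. The window after (54150000 to 54450000) had 2 regions with 91.3 ± 9.77 CPM in metastasis and 93.5 ± 18.95 CPM in primary lines. The median log2 fold change in rounds 2 and 3 together was -0.21 before and -0.13 after the locus, and for Met1 against primary lines -0.06 and 0.07. Before the locus 4 of 19 regions (21.1%) were called lower and 0 higher in Met1, the lowest at -2.29, and 4 were called lower and 1 higher in rounds 2 and 3 together. These shares lie above those of all tested regions (4.94% and 8.98% lower).

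The edges of the window were set by position and not by signal. In rounds 2 and 3 together the log2 fold change was -0.74 at peak_12358, just outside the start, and -0.80 at peak_12359, just inside. It was 0.36 at peak_12391, just inside the end, and -0.15 at peak_12395, just outside.

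Chromosome 11 as a whole was slightly lower in metastasis lines. Its median over regions, on the log2 scale and relative to each library's median, was -0.07 ± 0.05 in metastasis lines of rounds 2 and 3 and 0.10 ± 0.05 in primary lines (SD, n = 6 each), and -0.08 ± 0.04 in Met1 (n = 3). With each library's chromosome medians removed, 9 members were called lower in rounds 2 and 3 together and 7 in Met1 against the primary groups, as without the removal. The count fell from 6 to 5 in round 2, without peak_12359, and from 9 to 8 in round 3, without peak_12384. The counts for rounds 2 and 3 restate the choice, and the shift is small beside most fold changes of the called members. Nothing is therefore read from the unchanged counts, and a change of a shorter segment was not tested. On the rest of chromosome 11, 7.36% of 2648 tested regions were lower in Met1 and 10.9% in rounds 2 and 3.

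**Figure D4:**
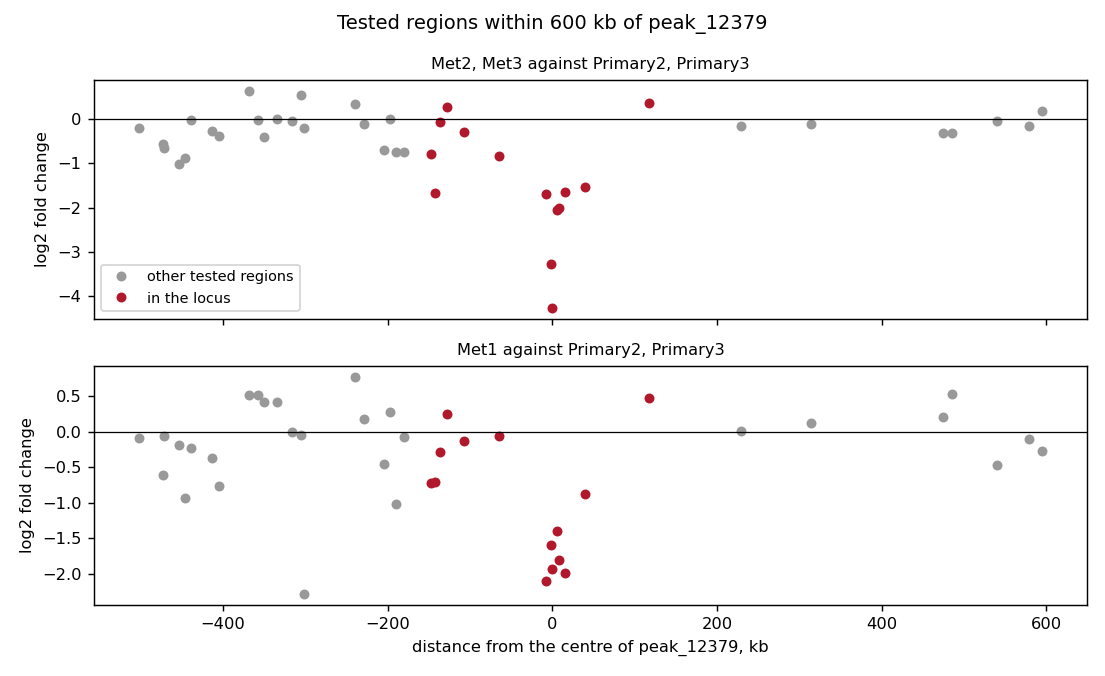
Log2 fold change (vertical axis) of tested regions within 600 kb of peak_12379 against their distance from its centre in kb, for later metastasis lines (top) and Met1 (bottom) against primary lines. The lowest points of the top panel gather around distance 0, and in the lower panel the same cluster lies between -2.11 and -1.40, with 1 outside region at -2.29.

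**Figure D5:**
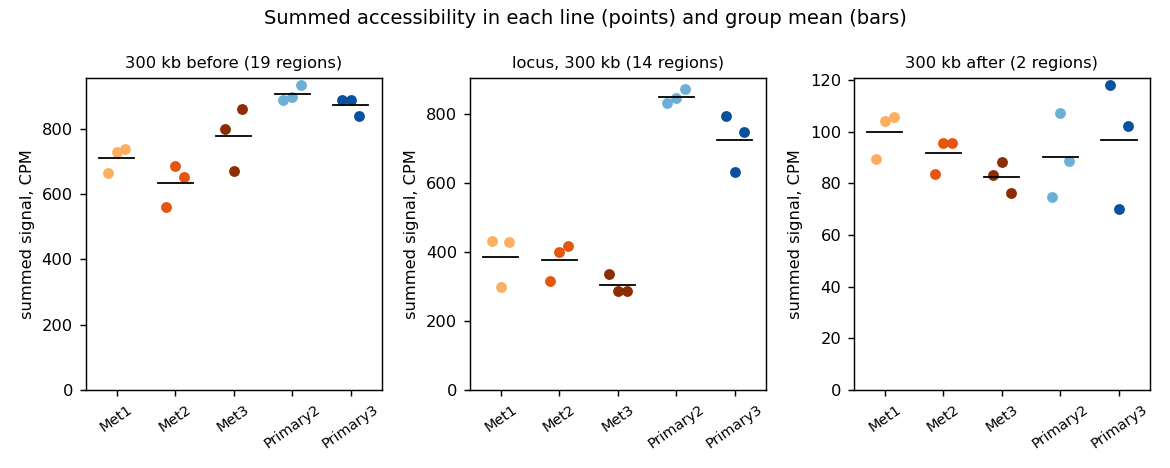
Summed accessibility in CPM of each line (points) and group mean (bars) over the locus and the windows of 300 kb before and after it. In the locus the 9 metastasis lines lie between 286 and 430 CPM and the 6 primary lines between 631 and 874.

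In Met1 against the primary groups, the called regions peak_12377 to peak_12382 formed a run of 6 consecutive tested regions, the longest length in the table, reached by 4 of 1612 runs. The run was looked at after the calls were known and holds the pair used in the choice, and neighbouring regions are not independent.

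Within the metastasis lines the 6 packed regions did not all vary together. Over the 9 lines, log2 CPM at peak_12377 and peak_12382, the ends of the stretch, correlated at r = 0.85, and at peak_12378 and peak_12380 at 0.84. In contrast, peak_12379 correlated at -0.15 with peak_12377 and at -0.27 with peak_12382. Over the 6 primary lines the 15 pairs had a median r of 0.45, from -0.54 to 0.95. These are descriptions over few lines that share library depth and round, and the counts at peak_12379 were between 0 and 9 in all 6 later metastasis lines.

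Elsewhere in the genome, the 5 regions whose log2 CPM over the 15 libraries was most like that of peak_12379 were taken from 19966 tested regions with at least the median signal. They were peak_20759 on chromosome 12 (82134559 to 82135369, Pearson's r = 0.986), peak_46199 on chromosome 18 (64491755 to 64493217, 0.964) and peak_5509 on chromosome 1 (184018543 to 184020431, 0.960). Next came peak_7187 on chromosome 10 (43158239 to 43161506, 0.954) and peak_63612 on chromosome 3 (152066795 to 152068502, 0.948). At peak_20759 the 9 metastasis lines held between 1.40 and 26.6 CPM and the 6 primary lines between 36.3 and 64.9. As at peak_12379, each metastasis line lay below each primary line at peak_20759, and the part of this divide in rounds 2 and 3 is what peak_12379 was chosen by.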

How the data were processed

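Per the labels' protocols, organoids were dissociated, the cells treated with TDE1 transposase and the libraries sequenced as read pairs. Per the submitters' processing notes, Bowtie, Picard, SAMtools, MACS2, bedtools and build mm9 were used, without roles or versions. No source used here says how reads were shifted or duplicates treated. The unit of the deposited table is counts, as whole numbers, for each region in each library. Library totals ran from 285633 to 5916109.

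Groups came from sample titles. The filterByExpr function (minimum count 10, minimum total 15) kept 39952 regions, which were scaled by TMM and tested in 1 quasi-likelihood model with 5 group means (edgeR 4.0.16, R 4.3.3), with Benjamini-Hochberg adjustment over all tested regions. Scripts were tested on simulated data. Log2 CPM used a prior count of 2. The SE is the size of the fold change over the root of F. The members and lists were chosen with earlier results of these data known. Members named in full were the 2 lowest in rounds 2 and 3, their neighbours, the strongest, and those called in comparisons not used in the choice, at most 5 for each. Gene positions in mm9 were not used here, and so neither were gene lists or cell type markers. Alternatives were DESeq2 1.42.0, total-count scaling, other filters, fewer groups, a replicate block, chromosome medians removed and each library left out.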

Additional observations from a re-analysis of the deposited data

How the results depend on the processing

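The count of members called in rounds 2 and 3 together, which restates the choice of the locus, was 9 under each alternative and with each library left out. Leaving out 1 library gave 4 to 7 calls in round 2, 5 to 9 in round 3, 2 to 8 for Met1 against the primary groups, 0 to 2 for Met2 against Met1 and 0 to 2 for Met3 against Met1. It gave 0 to 0 for Met3 against Met2, for Primary3 against Primary2 and for the difference between rounds. Over all tested regions the same refits gave 963 to 2969 calls in round 2 and 1483 to 5433 in round 3. For Met1 against the primary groups they gave 1162 to 5236. They gave 475 to 2475 for Met2 against Met1 and 1852 to 5247 for Met3 against Met1. For Met2 against Met1, fitting the compared groups alone called 0 members, and 58 regions in the whole table against 1417 in the main fit. Leaving out the 2 shallowest libraries, an alternative chosen after seeing the data, called 1 member and 1520 regions in the whole table. The cause was not tested. With the replicate block, 9 members were called in rounds 2 and 3 together, 6 in round 2, 7 in round 3, 7 for Met1 against the primary groups, 2 for Met2 against Met1 and 1 for Met3 against Met1. Replicate numbers share no animal or batch in the labels. Same-numbered libraries correlated between -0.21 and 0.16 in their deviations from the group means (30 pairs, 2 of them above 0.1). Differently numbered libraries were not compared, so these values cannot decide whether the numbers pair the lines. Of 505 alternative fold changes of named members, 489 kept their direction and call, 15 lost the call, 1 gained it and none changed sign. Restricted to members within 50 kb of peak_12379, the summed signal was 130.8 (Met1), 108.3 (Met2), 91.1 (Met3), 481.7 (Primary2) and 363.9 CPM (Primary3). With 1 line left out the mean for the whole locus ran from 363 to 429 in Met1, 357 to 408 in Met2, 286 to 311 in Met3, 839 to 860 in Primary2 and 690 to 771 CPM in Primary3. Depth limits single values most in Primary3 replicate 2.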
